A study of Mus musculus with 12 samples.

Results

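The extracellular matrix genes Col4a5, Col5a3, Col8a2, Fbn1, Vcan and Adamts12 carried N6-methyladenosine (m6A) peaks that differed between passage 9 (P9) and passage 3 (P3) mouse embryonic fibroblasts (MEFs). MEFs are primary cells grown from mouse embryos, which stop dividing after serial passage, and in this study P9 MEFs were the senescent and P3 MEFs the young cells. They were cultured in DMEM with fetal bovine serum, and the labels name no transgene or drug. The study's MEFs came from C57BL/6 embryos, and the sources used here do not say whether the replicates came from separate embryos. The libraries of methylated RNA immunoprecipitation sequencing (MeRIP-seq) comprised 3 MeRIP and 3 Input libraries of P9 MEFs and 3 MeRIP and 3 Input libraries of P3 MEFs, 12 in all. In this assay an antibody pulls down RNA fragments with m6A, and a stretch where they exceed the Input is a peak. One deposited table holds peaks higher in P9 MEFs and the other holds peaks lower in P9 MEFs.

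The members were chosen by their gene symbol among the peaks in these tables, so that each of them had already passed the deposited threshold, and their presence and direction are descriptions, not findings. Of 1043 listed peaks in 633 genes, 9 belonged to the 6 members. A listed peak is 1 peak on 1 transcript, and merging listed peaks of the same direction that overlapped left 6 sites for the members, 1 per gene, among 657 sites in all. The tables were used for the position, the place in the transcript and the direction of each peak. Values per library were not used here, so that depth is unknown, no peak has a spread between replicates, and no difference below was tested. Each peak was listed as a comparison of the passages, but whether it follows the m6A level or the amount of the mRNA cannot be told apart here.

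The extracellular matrix is the network of secreted proteins around fibroblasts, which are its main producers. Collagens give it tensile strength, fibrillin microfibrils give it elasticity and hold growth factors of the TGF-beta family, large proteoglycans such as versican bind hyaluronan and water, and secreted proteases cleave these components. The methyl group of m6A is added to mRNA by a complex around the enzyme METTL3, which favours adenosines inside a short sequence known as DRACH. Reader proteins of the YTH family bind the mark, and some of them hasten the decay of the mRNA.

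Of the members' 9 listed peaks, 7 were in the table of higher peaks and 2 in that of lower peaks. Over all listed peaks 80.5% were higher. By genes, Col4a5, Col8a2, Vcan and Adamts12 had only higher peaks, and Col5a3 and Fbn1 had only lower ones, against 502 genes with only higher and 122 with only lower peaks among all 633. None of the members had peaks in both directions. The 4 higher genes held their sites in the 3' UTR (Col4a5 and Col8a2) or in coding sequence (Vcan and Adamts12), and the 2 lower genes held theirs in the 5' UTR (Fbn1) or at the end of the 3' UTR (Col5a3). Among all listed peaks, the 5' UTR alone was the place of 1.55% of the higher peaks and of 12.8% of the lower peaks.

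**Figure D1:**
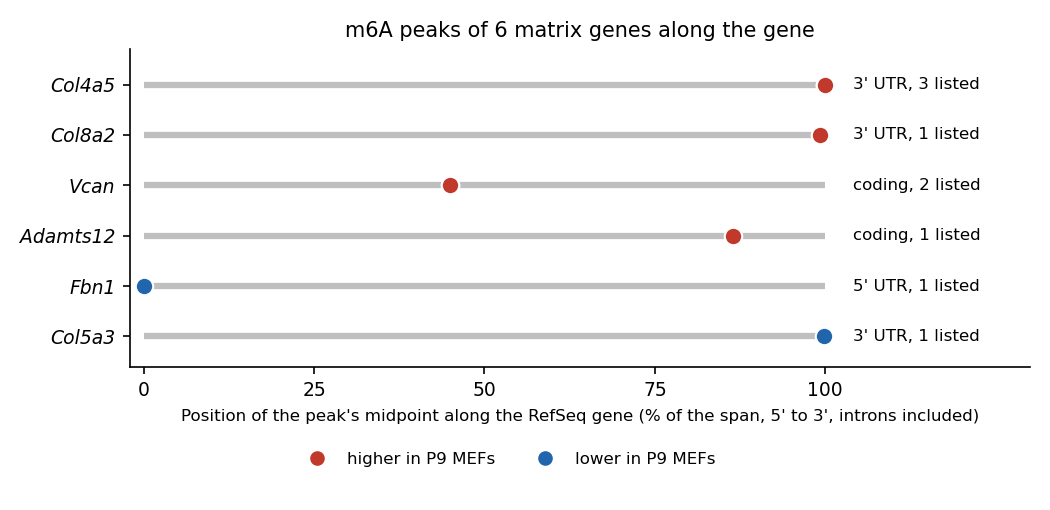
Midpoint of each listed m6A peak along its RefSeq gene, as a percent of the gene's span from the 5' to the 3' end with introns included, for the 6 members (1 row per gene, points of 1 gene overlap). The 3 genes with 3' UTR peaks sit at 99.2% to 99.9% of the span, Adamts12 at 86.5%, Vcan at 44.9% and Fbn1 at the start.

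Col4a5 encodes the alpha 5 chain of collagen IV, the sheet-forming collagen of basement membranes, and mutations in its human counterpart cause Alport syndrome. In RefSeq it spans chromosome X from 141475370 to 141689236 in mm10 (GRCm38.p6), plus strand. Its peak was listed as higher in P9 MEFs for 3 transcripts, all in the 3' UTR. On transcript ENSMUST00000112931.7, of 6536 nt, the peak ran from 141688934 to 141689204 and covered 271 nt. On ENSMUST00000130732.1, of 3511 nt, it ran from 141688937 to 141689204 (268 nt). On ENSMUST00000112930.7, of 6285 nt, it ran from 141688941 to 141689180 (240 nt). The 3 intervals thus differed by 7 nt at their 5' edge and by 24 nt at their 3' edge, and the shortest lay inside the other two. They make up a single site and share reads, so that they are not 3 independent observations. At the 3' side, the longest interval stopped 32 nt short of the gene end. Col4a5 lies next to Col4a6, which encodes another collagen IV chain, with 1274 nt between the genes, and Col4a6 had no listed peak.

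Col8a2 encodes the alpha 2 chain of collagen VIII, a short-chain collagen that forms the lattice of Descemet's membrane in the cornea and is also made by vascular cells. Its gene occupies chromosome 4 from 126286794 to 126314330 on the plus strand. The Col8a2 peak was listed as higher in P9 MEFs on transcript ENSMUST00000070132.6, of 4332 nt, in the 3' UTR from 126313882 to 126314330. Its 3' edge was the last base of the RefSeq gene. With 449 nt the peak covered 10.4% of its transcript, the highest share among the 9 listed peaks of the members, and it was longer than 404 of the 440 higher 3' UTR peaks.

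Col5a3 encodes the alpha 3 chain of collagen V, a minor fibrillar collagen that joins collagen I fibrils and limits their diameter. The gene lies on the minus strand of chromosome 9 from 20770050 to 20815117. In contrast to the other collagen genes, its peak was listed as lower in P9 MEFs. The Col5a3 peak ran from 20770050 to 20770170 on transcript ENSMUST00000004201.7, of 6119 nt, in the 3' UTR, and since the gene is read on the minus strand it ended at the last base of the gene, as did that of Col8a2. It was the shortest peak among the members with 121 nt (1.98% of the transcript), and 1 of the 35 lower 3' UTR peaks was shorter.

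All 5 listed 3' UTR peaks of these collagen genes therefore ended within 56 nt of the annotated gene end. Of the other 3' UTR peaks that matched a RefSeq gene, 177 of 459 (38.6%) ended within 100 nt of it, a limit set after the members' distances were seen. The median distance was 32 nt for the members, against 359 nt for the other higher and 1340.5 nt for the other lower 3' UTR peaks. Counted by gene, all 3 collagen genes and 112 of the 292 other entries (38.4%, a gene with peaks in both directions counted once for each) had a 3' UTR peak within 100 nt of the end. Of the 459 other peaks, 57 (12.4%) also ended exactly at the last base. All of these were higher peaks (57 of 425, 13.4%), against 0 of the 34 other lower peaks. Col5a3 was thus the only lower 3' UTR peak that ended exactly there. Within 100 nt of the end were 7 of the 34 other lower peaks (20.6%), the nearest of them 4 nt from it. Of the 425 other higher peaks, 170 (40%) ended within 100 nt.

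**Figure D2:**
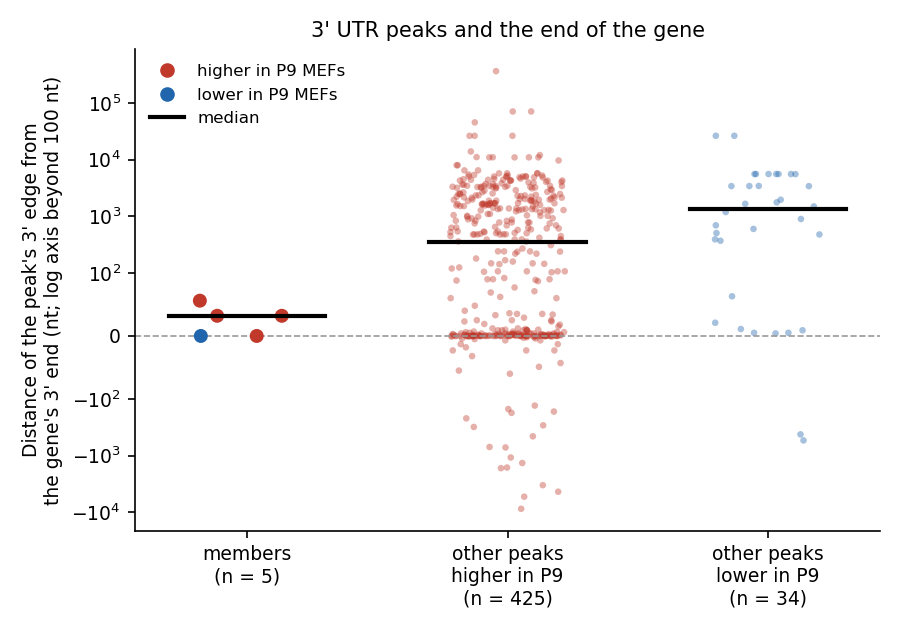
Distance of the 3' edge of each listed 3' UTR peak from the 3' end of its RefSeq gene in nt (linear within 100 nt of 0, log axis beyond it, below 0 where the peak lies past the end), for the members, the other peaks higher in P9 MEFs and the other peaks lower in P9 MEFs (1 point per listed peak, spread sideways, black line at the median). The 5 points of the members sit between 0 and 56 nt, and 57 of the other peaks, all higher in P9 MEFs, sit at 0 too.

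Fbn1 encodes fibrillin 1, the main structural protein of microfibrils, which also binds the latent TGF-beta complex, and its mutation in humans causes Marfan syndrome. RefSeq places it on the minus strand of chromosome 2 from 125300594 to 125506485. The Fbn1 peak was listed as lower in P9 MEFs and was the only 5' UTR peak among the members. On transcript ENSMUST00000103234.1, of 11971 nt, it ran from 125506198 to 125506766. With 569 nt in 1 block it was the longest peak of the members, and 24 of the 26 lower 5' UTR peaks were shorter, against a median of 210.5 nt over all 26. The peak lay across the start of the gene in RefSeq, with 288 nt inside the RefSeq span and 281 nt upstream of it. It was labelled as 5' UTR of the listed Ensembl transcript, whose start may differ from that of RefSeq. The 281 nt are therefore not shown to lie outside the mRNA. Of the lower listed peaks matched to a gene, 8 of 198 extended past the RefSeq start, Fbn1 included, and of the higher ones 0 of 817. Among 5' UTR peaks alone these were 7 of 24 lower and 0 of 13 higher ones, so that the difference in place between the directions enters the first comparison. The other 7 peaks reached 37 to 161953 nt past the RefSeq start, with a median of 190 nt. The largest value is a distance on the genome for a peak whose exon blocks cover only 211 nt. The next largest was 327 nt. No other RefSeq gene overlapped the Fbn1 peak.

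The Fbn1 peak is the only one of the members that reached its own promoter window in RefSeq (GRCm38.p6), which holds 250 bases before and 50 bases after a start site. It covered all 300 bases of this window, chr2:125506389-125506688, and extended 78 nt further upstream. The window's start site, at 125506438, lies downstream of the outermost RefSeq start of the gene. The window was searched for the DRACH consensus, which here means AC after A or G, that base after A, G or T, and A, C or T after the AC (18 words of 5 bases). The transcript strand held 4 matches, which are shown because this is the only peak of the members whose sequence was at hand. In each line the 5 bases in capitals are the match, the sequence is printed in the direction of the mRNA, and the distance is that of the central A from the window's start site.
Fbn1, 246 bases upstream, chr2:125506660-125506688: caGGACTggatcacctccgcctcctccca
Fbn1, 47 bases upstream, chr2:125506471-125506499: ttctctcgcgagAAACCgctgcgcggacg
Fbn1, 15 bases downstream, chr2:125506409-125506437: gagttggggcagAGACTgtgggtgccaca
Fbn1, 46 bases downstream, chr2:125506389-125506417: ggtgccacaggcggccacagctgGGACAg

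Of these matches, 2 lay before and 2 after this start site. The match 47 bases upstream has its central A at 125506485, the first base of the RefSeq gene, and so is not upstream of the gene. The opposite strand of the window held 2 matches. The word GGAC occurred 3 times and GGACT once, and each GGACT is also a GGAC and a DRACH match. Matches of this kind are common, since 98.4% of the 32851 promoter windows held DRACH on the transcript strand (98.5% on the opposite strand), with a median of 5 matches. GGAC was held by 65.6% of the windows and GGACT by 26.1%. The Fbn1 window had a GC content of 60.3%, against a median of 52.7% over all windows. A match describes the letters only and marks no methylated base. The remaining 269 bases of the peak, 78 upstream and 191 downstream of the window, were not searched here.

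**Figure D3:**
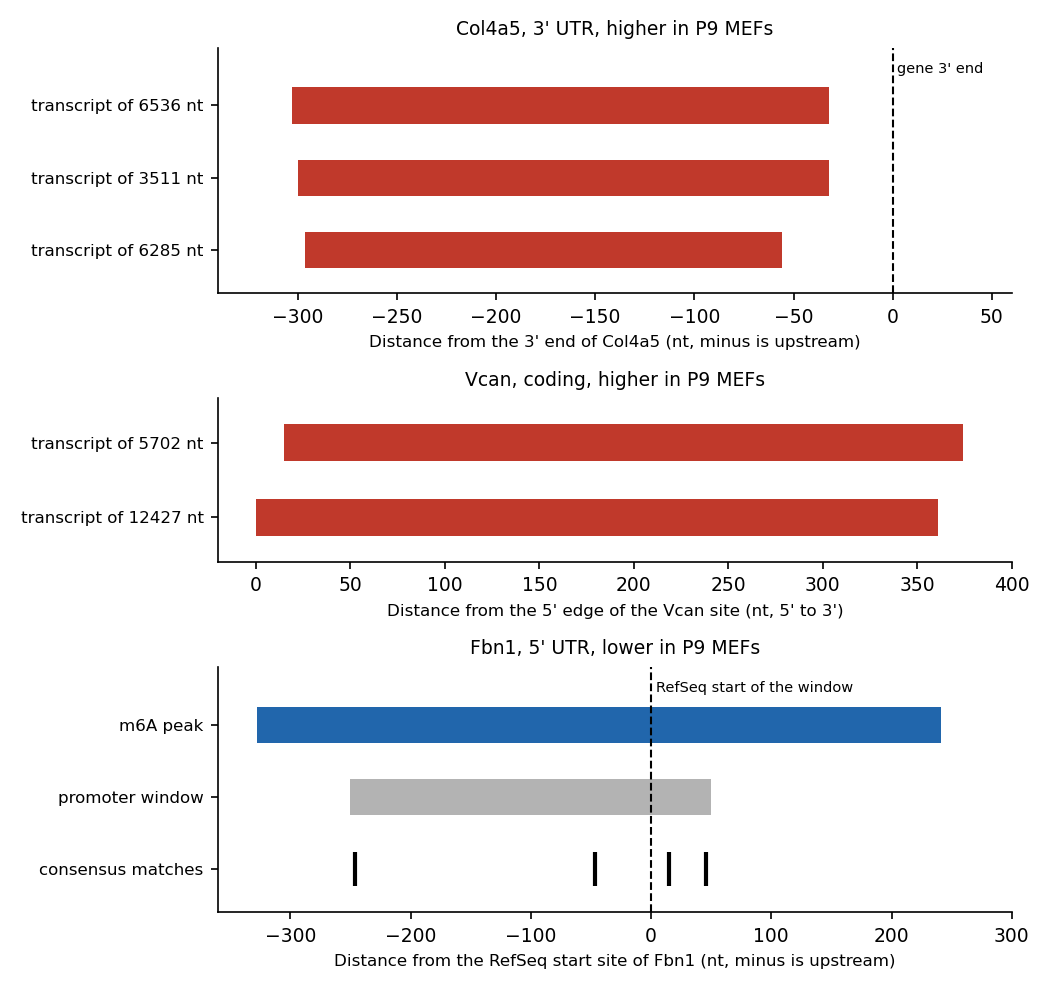
Listed intervals of the Col4a5, Vcan and Fbn1 peaks in nt, from the 3' end of the gene (Col4a5), the 5' edge of the site (Vcan) and the RefSeq start site of the promoter window (Fbn1), with 1 bar per listed transcript or feature and ticks at the central A of the 4 DRACH matches. The Col4a5 intervals stop 32 to 56 nt before the gene end, the edges of the Vcan intervals are shifted by 13 to 15 nt, and the Fbn1 peak spans the whole window and more.

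Vcan encodes versican, a large proteoglycan whose core protein carries chondroitin sulfate chains and binds hyaluronan, and whose attachment region is encoded by long, alternatively spliced exons. The gene lies on the minus strand of chromosome 13 from 89655309 to 89743027. Its peak was listed as higher in P9 MEFs for 2 transcripts and placed in coding sequence on both. On ENSMUST00000109546.8, of 12427 nt, it ran from 89703419 to 89703779 (361 nt). On ENSMUST00000109544.8, of 5702 nt, it ran from 89703406 to 89703764 (359 nt). Both intervals were a single exon block and had 346 nt in common, and thus form 1 site. It lay 48110 nt from the 3' end of the gene on the longer transcript, introns included, and was the only site of the members in the middle of its gene. Of the 387 higher coding peaks, 57.6% were a single block, and their median length was 360 nt, close to both Vcan intervals.

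Adamts12 encodes a secreted metalloprotease with thrombospondin repeats, known in humans to cleave the cartilage protein COMP. Its RefSeq span is chromosome 15 from 11064773 to 11349232, plus strand. The Adamts12 peak was listed as higher in P9 MEFs on transcript ENSMUST00000061318.8, of 8579 nt, and ran over 271 nt of coding sequence from 11310706 to 11310976 in 1 block. It lay 38256 nt from the 3' end of the gene, at 86.5% of the span. The higher coding peaks as a whole had their midpoint at a median of 77.9% of the gene (interquartile range 53.0% to 92.5%), so that Adamts12 fell inside and Vcan, at 44.9%, below this range.

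The peaks of the members shared some features that did not enter their choice. All 9 were 1 exon block, a feature that went with place: 99.6% of all listed 3' UTR peaks were a single block, against 49.9% of the coding and 71.8% of the 5' UTR peaks. Their lengths ran from 121 to 569 nt with a median of 271 nt, and the median over all listed peaks was 269 nt. Each of the 9 lengths lay within 2 nt of a multiple of 30 nt, as did those of 677 of the 756 other single-block peaks (89.6%). The differences of 7 to 24 nt between the transcripts of 1 gene are smaller than this step. The 9 listed transcripts of the members were long, with a median of 6285 nt (3511 to 12427 nt), against 3460 nt over all 1013 listed transcripts. The Vcan and Fbn1 transcripts of 12427 and 11971 nt ranked 27 and 30 by length among them.

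**Figure D4:**
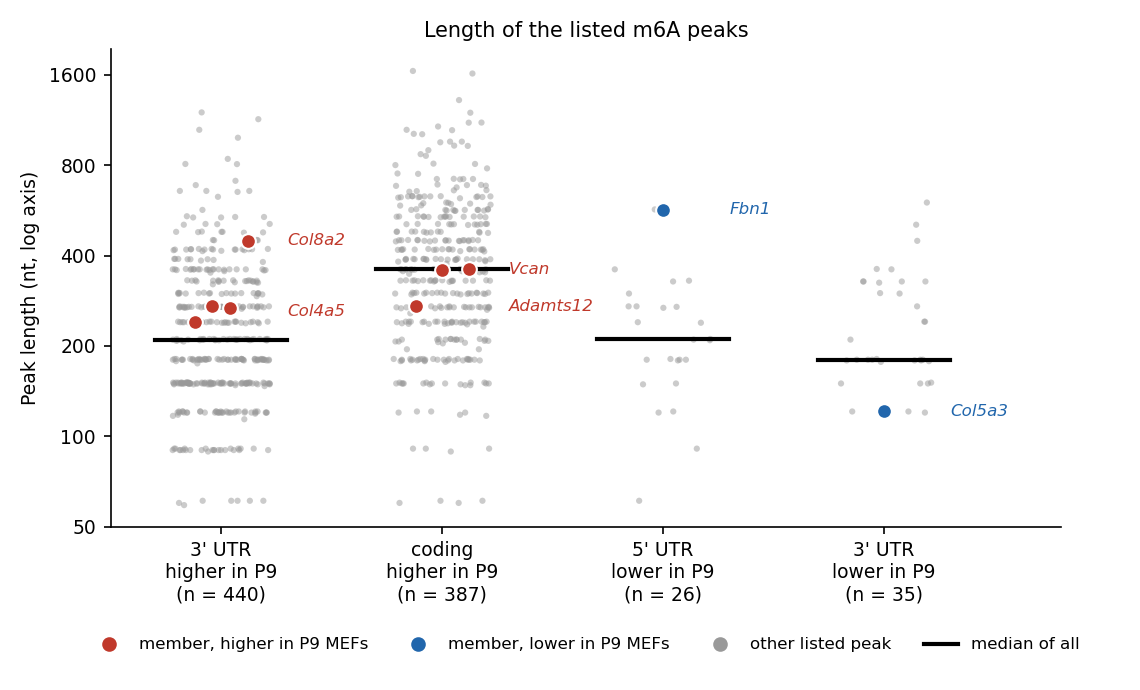
Length of the listed m6A peaks in nt on a log axis, by place and direction, with the members as large points, the other listed peaks as grey points and the median of all as a black line. Col8a2 (449 nt) and Fbn1 (569 nt) sit above most peaks of their place, Vcan sits at the median, and Col5a3 (121 nt) sits near the lower end.

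Among 259 matrix genes on 8 lists, 7 (2.70%) had a listed peak, the 6 members and the integrin gene Itga9. This share was close to that of all protein-coding RefSeq genes, of which 612 of 21896 (2.8%) had a listed peak, unexpressed genes included. The collagen list gave 3 of its 44 genes, 2 of them higher and 1 lower. The microfibril and elastic fibre list gave 1 of 23 (Fbn1, lower), the proteoglycan and hyaluronan list 1 of 29 (Vcan, higher) and the list of ADAMTS and ADAMTS-like proteins 1 of 25 (Adamts12, higher). Of 29 matrix receptors only Itga9, with a 3' UTR peak, was listed, as higher. None of the 50 matrix glycoproteins on the list, which include fibronectin and the laminins, of the 39 other proteases and inhibitors or of the 20 genes of collagen folding and cross-linking was listed. The lists are not complete, and Sned1, a matrix glycoprotein outside them that was picked out after the tables were seen, had a higher 3' UTR peak of 1200 nt. The abundant fibroblast collagens Col1a1, Col1a2 and Col3a1 were among the genes without a listed peak. Absence from the tables means that a gene had no peak past the threshold, and says neither that it lacked m6A nor that its m6A was the same at both passages.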

How the data were processed

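MeRIP-seq was performed on P9 and P3 MEFs, 3 MeRIP and 3 Input libraries each. The deposited tables list peaks on mm10, with a transcript, exon blocks, the transcript's length and place labels, and per the file headers also a fold change and a p-value of Treatment against Control. Those 2 columns are the authors' own comparison and were not used, so their threshold could not be varied. The labels do not say which passage is Treatment. It was taken to be P9, and Control to be P3, from the paper's account of the comparison. The aligner, the peak caller, the test and the use of Input and strand were not given in the sources used here. Per the paper, the libraries were prepared with a stranded mRNA kit.

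Starts, which count from 0 in the tables, were raised by 1. Peaks were placed by label with coding first, then 3' UTR, then 5' UTR. Gene spans, promoter windows and printed sequences came from RefSeq (GRCm38.p6). By symbol and chromosome, 1015 of 1043 listed peaks found their gene there, each member among them. RefSeq spans may differ from the listed Ensembl transcripts. Distances were taken on the genome. Merging, distances and the motif search were checked on simulated peaks. Named were the 6 members and each listed gene of the matrix lists. The members and lists were chosen with earlier results of these data known, so no test was made. The labelled cell type could not be checked without expression values (0 of 18 cell type markers had a listed peak). Python 3.11.15, pandas 2.3.3, numpy 2.4.6, scipy 1.17.1 and matplotlib 3.10.9 were used.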

Additional observations from a re-analysis of the deposited data

How the results depend on the processing

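With sites or genes in place of listed peaks, 66.7% of the members were higher, against 77.8% by listed peaks. Over the whole series, 79.9% of the sites were higher, 79.3% of the genes had only higher peaks, and 80.5% of the listed peaks were higher. The 3' UTR held 55.6% of the members' listed peaks by either rule of placing and 3 of their 6 sites. It held 45.5% of all listed peaks and 46.3% of all sites. The median distance of the 3' UTR peaks to the gene end was 0 nt with 1 peak per gene in place of 32 nt, because Col4a5 then counts once. The Fbn1 peak extended 328 nt past the start site of the promoter window and 281 nt past the RefSeq start. The motif count in the Fbn1 window was 4 for DRACH, 3 for GGAC, 1 for GGACT and 2 for DRACH on the opposite strand. The lists gave 7 genes with or without synonyms and 6 without receptors. Counting sites or 1 peak per gene for place, distance and length (median 316 nt) and the second start site were chosen after seeing the data. No paired analysis was possible because no values per library were used, and leaving out a replicate, a stricter threshold, placing by midpoint, other transcript models and extended peaks were not run for want of library values, transcript models or genome sequence.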
